A study of Mus musculus with 2 samples.

Results

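The MCM replication helicase and licensing genes were followed in single cells of the ocular area of mouse embryos at the 26-somite stage, E9.25. The 9 members were chosen by name, as genes present in both count matrices: *Mcm2*, *Mcm3*, *Mcm4*, *Mcm5*, *Mcm6* and *Mcm7*, whose products form the helicase ring, and *Mcm10*, *Cdc6* and *Cdt1*, which act in its loading or activation. All 9 were found once each among 27998 genes. Cells of the paired optic areas of 1 C57BL/6J embryo per genotype, wild type (WT) or Mab21l1-null (KO), were dissociated with trypsin, and the 10x Chromium 3′ system gave 1 library for each genotype, in which a unique molecular identifier (UMI) counts each captured transcript once. The labels name no treatment, and both embryos were of the same stage.

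Each genotype is represented by 1 library of 1 embryo, so differences between them lack a replicate and were not tested. Levels are UMIs per 1000000 UMIs of the same cells (CPM), without division by length, since a 3′ count stands for a molecule whatever its length. Brackets give exact 95% intervals, Poisson for a level, conditional binomial for a log2 ratio of KO over WT and Clopper-Pearson for a share, and all of them cover counting error only. The filters kept 1680 cells with 41880035 UMIs in the WT-labelled library and 2404 cells with 52430844 UMIs in the KO-labelled one, with medians of 21037 and 18135 UMIs per cell. The libraries shared 15 cell barcode sequences. *Mab21l1*, the disrupted gene, had 20.3 CPM [18.9, 21.7] in the WT-labelled library and 32.5 CPM [31.0, 34.1] in the KO-labelled one over all kept cells, and 137 and 62.0 CPM in the lens placode-like cells described below, so both are called by their labels here and every direction depends on them. Which bases the null allele lacks is not given in the sources used here, so that a 3′ count of *Mab21l1* may not check the genotype.

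In cells that can divide, *Mcm2* to *Mcm7* hexamers are loaded as pairs onto each replication origin in G1 by the origin recognition complex with *Cdc6* and *Cdt1*, a step called licensing. In S phase the ring is activated by Cdc45 and the GINS proteins, with *Mcm10*, and unwinds DNA ahead of the polymerases, while geminin (*Gmnn*) and the destruction of *Cdt1* prevent a further round of loading. Transcription of these genes is known to rise towards S phase under E2F factors, and in the embryonic eye most cells are progenitors that still divide.

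The members lie on 7 chromosomes of GRCm38, the build of the files. *Mcm3* (20802968 to 20820312) and *Mcm6* (128331590 to 128359664) are on the minus strand of chromosome 1. *Mcm10* lies on chromosome 2 from 4989714 to 5012791, *Mcm7* on chromosome 5 from 138164583 to 138172422, *Mcm2* on chromosome 6 from 88883474 to 88898780 and *Mcm4* on chromosome 16 from 15623897 to 15637400, all on the minus strand. *Mcm5* (75109569 to 75128439) and *Cdt1* (122568015 to 122573554) are on the plus strand of chromosome 8, and *Cdc6* is on the plus strand of chromosome 11 from 98907801 to 98923940. *Mcm7* was the only member that shared exon bases with counted genes in the GENCODE annotation: 64 bases with *Cops6* and 321 with *Ap4m1*, both on the opposite strand and counted at 13264 and 2116 UMIs over all barcodes. The strand setting of the authors' counting is not given in the sources used here.

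Promoter sequences, from 250 bases before to 50 after the start, were taken from RefSeq (GRCm38.p6) for the 8 members with an entry. They were searched on both strands for 4 E2F-type words, TTTCCCGC, TTTCGCGC, TTTGCCGC and TTTGGCGC. At least 1 of them was found in 6 of the 8 members and in 6 of their 9 promoters, against 2.26% of all 32851 promoters of that length. *Mcm7* has more than 1 promoter, and 1 of them held none of the words. *Mcm2* and *Mcm10* held none of the words, and *Mcm4* had no entry. The stretches are shown because 6 members hold such a word, though not all hold the same one. *Mcm3*, *Mcm6* and *Mcm7* each held a further stretch that is not shown. The capitals mark the word, or overlapping words, read on either strand.
Mcm3: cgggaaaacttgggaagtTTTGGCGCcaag
Mcm5: gccaagaacTTTCGCGCCAAAacgtccagc
Mcm6: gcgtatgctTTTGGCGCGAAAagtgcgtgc
Mcm7: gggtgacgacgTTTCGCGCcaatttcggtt
Cdc6: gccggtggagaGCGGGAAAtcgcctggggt
Cdt1: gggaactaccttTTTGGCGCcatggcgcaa
They were read from chr1:20820263-20820292, chr8:75109347-75109376, chr1:128359795-128359824, chr5:138171849-138171878, chr11:98908002-98908031 and chr8:122568035-122568064, each on the strand of its gene. In *Mcm5* and *Mcm6* a word on each strand overlapped. The CCAAT word was found in 6 of the 8 members and in 7 of their 9 promoters, against 37.4% of all promoters. A match describes the letters of this window and is not a mapped binding site.

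The cells were put into classes by the number of marker genes detected, without clustering on the members. Ectoderm-like cells had at least 4 of 7 ectoderm markers such as *Krt8*, *Krt18* and *Epcam*, and numbered 58 in the WT-labelled library and 40 in the KO-labelled one. They were divided by surface ectoderm markers alone, such as *Trp63* and *Krt5*, into lens placode-like (LP-like) cells with at most 2 of them and surface ectoderm-like (SE-like) cells with at least 3. This gave 30 and 22 LP-like and 28 and 18 SE-like cells. Optic vesicle-like cells numbered 600 and 960, pigment epithelium-like cells 222 and 232, forebrain-like cells 52 and 70, neural crest-like cells 34 and 34, mesenchyme-like cells 470 and 723, endothelium-like cells 64 and 99, and erythroid-like cells 36 and 52. Lens placode markers in LP-like cells were compared with 2 times their level in SE-like cells. This limit was met by 8 of 8 in the WT-labelled library and 7 of 8 in the KO-labelled one. A marker at 0 in both classes also meets it, and in each library 1 of the 8 had no UMI in LP-like cells. In the WT-labelled one this marker was counted without being higher. The summed level of the 8 markers in LP-like cells was 2102 and 1151 CPM. The classes hold few ectoderm cells and many lie near the limits: 35 of the 58 and 13 of the 40 ectoderm-like cells had exactly 4 ectoderm markers, and 12 of the 30 and 11 of the 22 LP-like cells had exactly 2 surface ectoderm markers. RNA of optic vesicle markers was present in them: all 5 markers were counted in LP-like cells of both libraries, with a summed level of 371 and 498 CPM, against 925 and 950 CPM in optic vesicle-like cells. The 7 mesenchyme markers summed to 70.8 and 66.6 CPM, with 2 and 3 of them at 0. The part of such RNA in the members' levels was not tested.

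All 9 members were counted in every class of both libraries. Over all kept cells *Mcm7* had the highest level, at 108 CPM [105, 111] in the WT-labelled library and 97.4 CPM [94.8, 100] in the KO-labelled one. *Mcm5* followed at 88.7 and 84.4 CPM, *Mcm3* at 84.3 and 80.8 CPM, *Mcm6* at 80.8 and 75.6 CPM, *Mcm2* at 63.7 and 64.1 CPM and *Mcm4* at 53.6 and 53.0 CPM. The loading factor *Cdt1* had 42.2 and 45.1 CPM, the activation factor *Mcm10* had 32.7 and 34.5 CPM, and *Cdc6*, the ATPase that brings the ring to the origin, was lowest at 20.7 and 18.7 CPM. The order of the 9 genes was the same in both libraries.

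Between classes the 9 members summed spanned 1.73 times [1.5, 1.99] in the WT-labelled library, from neural crest-like cells to LP-like cells, and 1.58 times [1.34, 1.87] in the KO-labelled one, from LP-like cells to forebrain-like cells. LP-like cells were thus at opposite ends of the order in the libraries. Single members spanned from 1.46 times, for *Mcm2* in the KO-labelled library, to 4.61 times, for *Mcm10* in the same library, which had 42.4 CPM in mesenchyme-like cells and 9.19 CPM, or 3 UMIs, in SE-like cells. In the WT-labelled library *Mcm10* spanned 2.70 times and *Mcm4* 2.48 times. Among the 9 separate classes, neighbours in the order of summed *Mcm2* to *Mcm7* had intervals that did not overlap once in the WT-labelled library, where LP-like cells at 671 CPM stood above pigment epithelium-like cells at 551 CPM. In the KO-labelled library this held for forebrain-like (539 CPM) over pigment epithelium-like cells (479 CPM) and for optic vesicle-like (454 CPM) over endothelium-like cells (415 CPM). For single members, *Mcm5* in the KO-labelled library was the only one with such a step, from mesenchyme-like cells at 90.4 CPM to optic vesicle-like cells at 79.5 CPM. All other neighbours overlapped. The share of all genes with such steps is not given here, so these counts do not set the members apart from other genes. In erythroid-like cells the erythroid markers, globins among them, summed to 312711 and 323569 CPM. This lowers the CPM of every other gene there, and with it the place of that class in these orders.

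**Figure D1:**
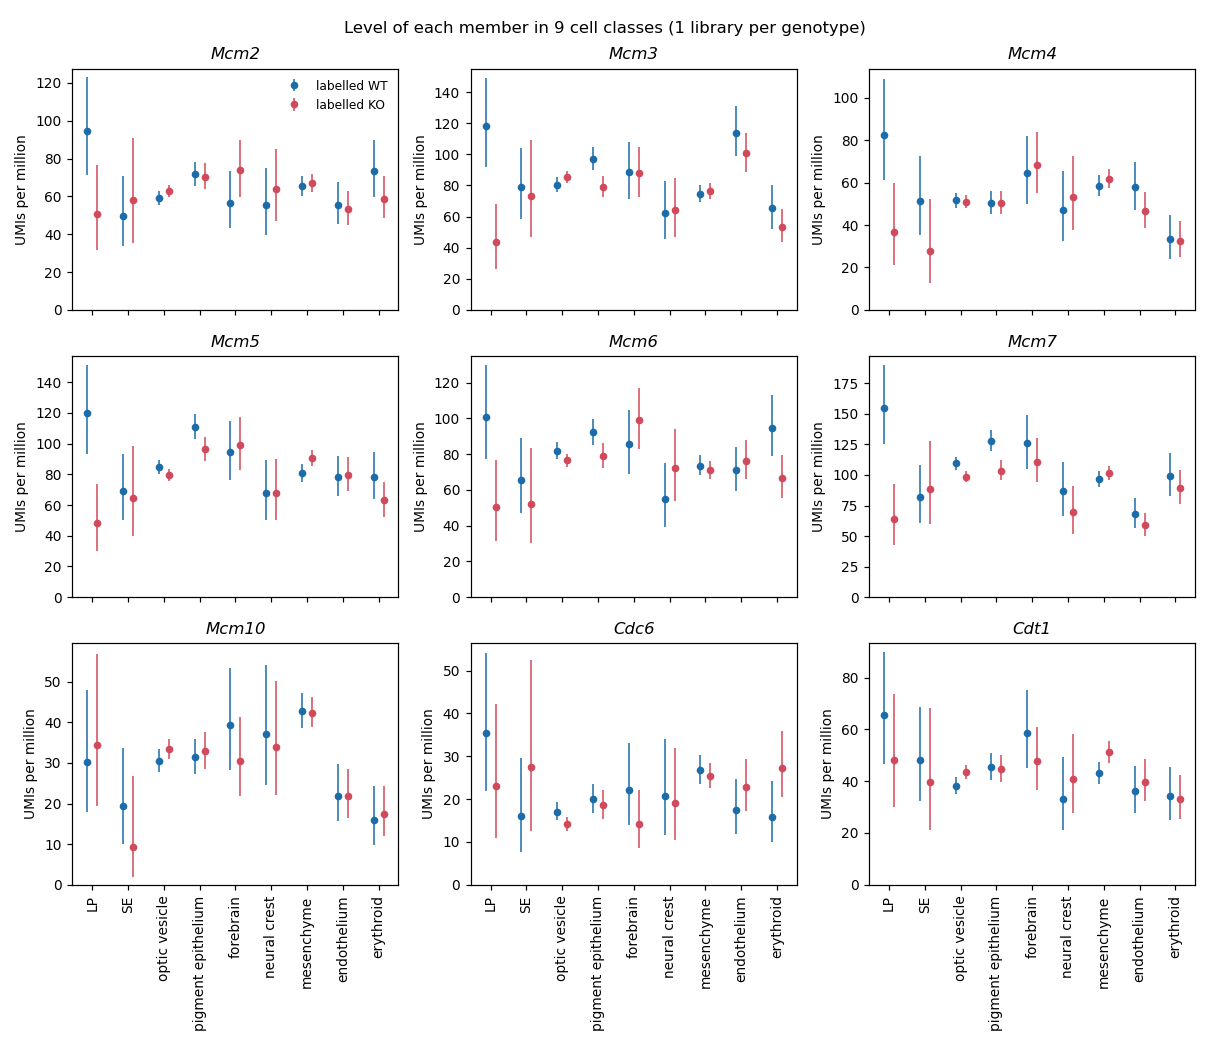
Level of each of the 9 members, in UMIs per 1000000 UMIs of the same cells, in 9 cell classes of the WT-labelled and KO-labelled libraries; points are levels over all cells of a class and bars are exact 95% Poisson intervals. In LP-like cells the levels of *Mcm2* to *Mcm7* in the KO-labelled library lie between 36.8 and 64.3, and those in the WT-labelled one between 82.6 and 155.

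The highest class differed between members. *Mcm10* was highest in mesenchyme-like cells in both libraries, at 42.9 CPM [38.7, 47.3] and 42.4 CPM [38.8, 46.3], and stood at 15.9 and 17.3 CPM in erythroid-like cells. *Mcm4* was at 33.3 and 32.6 CPM in erythroid-like cells. Levels in this class are lowered by its erythroid markers, as given above. Of the 6 ring subunits, *Mcm7* supplied the largest share of UMIs over all kept cells, 22.5% [21.9, 23.1] and 21.4% [20.9, 21.9], and *Mcm4* the smallest, 11.2% [10.8, 11.6] and 11.6% [11.2, 12.1]. In endothelium-like cells *Mcm3* took the first place: it held 25.6% [22.7, 28.8] of the ring's UMIs in the WT-labelled library and 24.2% [21.7, 27.0] in the KO-labelled one, against 17.2% [16.4, 18.1] and 18.8% [18.1, 19.6] in optic vesicle-like cells. *Mcm7* was lower there, at 15.3% [12.9, 18.0] and 14.2% [12.1, 16.4], against 23.4% [22.5, 24.4] and 21.7% [20.9, 22.5] in optic vesicle-like cells. In erythroid-like cells *Mcm4* held 7.51% [5.51, 9.95] and 8.95% [6.93, 11.3]. The intervals of the endothelium-like and optic vesicle-like cells did not overlap for *Mcm3* or *Mcm7* in either library. How many other genes differ in this way between these classes is not given here. The 6 products join in equal numbers in the ring, and RNA levels say nothing of the amount of protein.

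**Figure D2:**
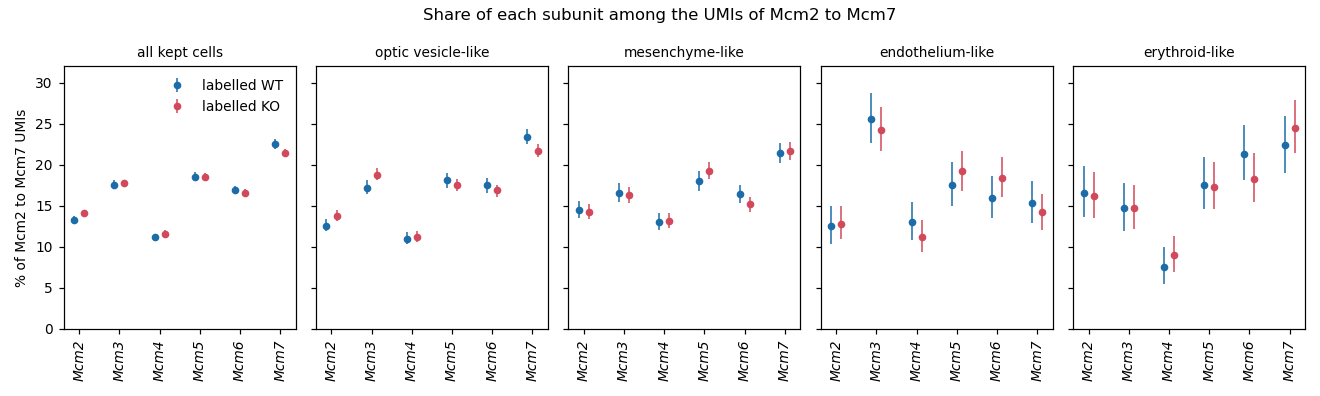
Share of each ring subunit, in percent of the UMIs of *Mcm2* to *Mcm7*, over all kept cells and in 4 classes; points are the WT-labelled and KO-labelled libraries and bars are exact 95% binomial intervals. *Mcm7* is first in the first 3 panels, while in endothelium-like cells *Mcm3* stands at 25.6% and 24.2% and *Mcm7* at 15.3% and 14.2%.

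The study compared KO with WT to find what changes when the lens placode forms without *Mab21l1*. In LP-like cells the 6 ring genes were lower in the KO-labelled library. The ring genes had 398 UMIs in 30 cells of the WT-labelled library, or 671 CPM, and 128 UMIs in 22 cells of the KO-labelled one, or 294 CPM, a log2 ratio of -1.19 [-1.49, -0.90]. *Mcm3* showed the lowest ratio, at 118 and 43.6 CPM (-1.43 [-2.25, -0.69]). *Mcm5* was at 120 and 48.2 CPM (-1.31 [-2.09, -0.59]) and *Mcm7* at 155 and 64.3 CPM (-1.27 [-1.94, -0.65]). *Mcm4* was at 82.6 and 36.8 CPM (-1.17 [-2.08, -0.33]), *Mcm6* at 101 and 50.5 CPM (-1.0 [-1.78, -0.27]) and *Mcm2* at 94.4 and 50.5 CPM (-0.90 [-1.68, -0.17]). The intervals of all 6 ring genes lay below 0. Of the 4405 genes with at least 30 UMIs, 7.11% had intervals below 0 and 6.11% above. With a stricter marker limit *Mcm2* had a ratio of 0.21 instead.

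The loading and activation factors had few UMIs. *Cdc6* had 21 UMIs in the WT-labelled library and 10 in the KO-labelled one (-0.62 [-1.87, 0.53]), *Cdt1* 39 and 21 (-0.45 [-1.29, 0.35]) and *Mcm10* 18 and 15 (0.18), all within counting error. The interval of each held the ratio of at least 1 ring gene. Summed, these factors had 78 and 46 UMIs (-0.32 [-0.87, 0.23]), an interval that did not overlap that of the summed ring genes (-1.19 [-1.49, -0.90]). Over all ectoderm-like cells the intervals of these sums overlapped (-0.20 [-0.64, 0.23] and -0.71 [-0.93, -0.50]). The difference from the ring genes was not tested. Counting 1.5-fold as past the limit, 7 of the 9 members in LP-like cells were below the limit in the KO-labelled library and 0 above it, against 10.8% of the 4405 genes with at least 30 UMIs lower and 8.97% higher. The members' median log2 ratio was -1.0, and that of all these genes -0.01. In SE-like cells 7 members reached 30 UMIs, and 1 of them, *Mcm4* with 32 and 9 UMIs (-0.90 [-2.15, 0.20]), was past 1.5-fold lower, against 10.6% of genes lower and 6.68% higher. The ring genes there were at 397 and 365 CPM (-0.12 [-0.45, 0.20]). *Mcm10* (12 and 3 UMIs, -1.07 [-3.53, 0.82]) and *Cdc6* (10 and 9 UMIs, 0.78 [-0.70, 2.23]) were too sparse in SE-like cells to count. The difference between LP-like and SE-like cells was not tested.

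Over all ectoderm-like cells, without the division, 5 of the 9 members were past 1.5-fold lower and 0 higher, against 9.72% and 6.04% of 6618 genes. The ring genes were at 530 and 324 CPM (-0.71 [-0.93, -0.50]), with *Mcm4* at 66.6 and 32.8 CPM (-1.02 [-1.73, -0.36]) and *Mcm3* at 97.9 and 56.5 CPM (-0.79 [-1.33, -0.28]). *Cdc6* (25.5 and 24.9 CPM) and *Mcm10* (24.7 and 23.6 CPM) were nearly level, with ratios of -0.03 [-0.94, 0.84] and -0.06 [-0.99, 0.83].

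These values depend on which cells are called LP-like. In all, 5 combinations of a choice of ectoderm cells and a way to divide them were compared. The members' ratios under each were seen before 1 was kept. It was kept because it divides the cells without lens placode markers, which were themselves lower in the KO-labelled library. The surface ectoderm markers that it uses summed to 82.6 and 113 CPM in LP-like cells, and to 689 and 656 CPM in SE-like cells. The study reported surface ectoderm genes among those raised in KO. This division may therefore also move with genotype, which was not tested. The summed ratio of the 9 members in LP-like cells was -1.01 [-1.26, -0.75] as reported, -0.94 with classes from clusters, -0.49 with an ectoderm limit of 3 markers, -1.09 when cells went to the list with more markers and -1.20 when the division was set at 1 surface ectoderm marker. It was below 0 under each of the 5, and in SE-like cells it lay between -0.41 and 0.50.

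**Figure D3:**
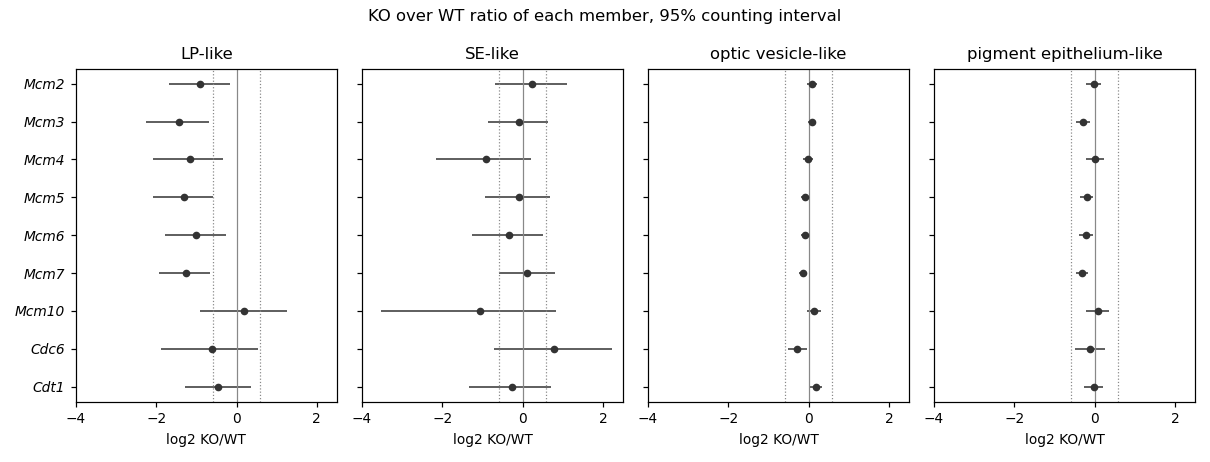
Log2 ratio of KO over WT of each member in 4 classes; points are ratios of CPM, bars are exact 95% counting intervals, the solid line marks 0 and the dotted lines mark 1.5-fold. *Mcm2* to *Mcm7* lie between -1.43 and -0.90 in LP-like cells and between -0.31 and 0.09 in optic vesicle-like and pigment epithelium-like cells.

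The phase of the cell cycle moved with this difference. Phases were called from lists of 38 S and 54 G2/M genes without the members. Of the LP-like cells, 16 of 22 in the KO-labelled library were called G2/M (72.7% [49.8, 89.3]) and 3 of 22 S, while in the WT-labelled library 8 of 30 were called G2/M (26.7% [12.3, 45.9]) and 11 of 30 S. The mitotic genes *Top2a* (197 and 425 CPM) and *Ccnb1* (52.3 and 138 CPM) were higher in the LP-like cells of the KO-labelled library. *Top2a* is on the G2/M list that made the calls, so its level is no separate check of them. In SE-like cells *Ccnb1* was at 135 and 52.1 CPM and *Top2a* at 312 and 306 CPM. Over all ectoderm-like cells *Ccnb1* was at 94.6 and 101 CPM and *Top2a* at 256 and 374 CPM. *Top2a* and *Ccnb1* were named after their values were seen. With phases scored after thinning, 15 of 21 LP-like cells of the KO-labelled library and 7 of 30 of the WT-labelled one were called G2/M, and with an S list free of the replication genes described below 16 of 22 and 8 of 30. With an ectoderm limit of 3 markers, 39.5% of LP-like cells in the WT-labelled library and 53.1% in the KO-labelled one were called G2/M. These shares were 27.6% and 69.6% with classes from clusters. They were 29.4% and 78.9% by the list with more markers, and 22.2% and 81.8% with the division at 1 surface ectoderm marker. Of the SE-like cells as reported, 46.4% in the WT-labelled library and 33.3% in the KO-labelled one were called G2/M. When the levels of each phase were weighted by the phase mix of WT, the ring ratio in LP-like cells went from -1.19 to -0.46. The ring genes did not move alike. *Mcm6* went from -1.0 to 0.10, *Mcm5* from -1.31 to -0.25, *Mcm7* from -1.27 to -0.39 and *Mcm3* from -1.43 to -0.60. *Mcm4* went from -1.17 to -1.12 and *Mcm2* from -0.90 to -1.11. These weighted ratios have no interval, and their G1 and S levels in the KO-labelled library come from 3 cells each. Within phases the ring genes were at 548 and 413 CPM in G1 (-0.41 [-1.10, 0.24], 11 and 3 cells) and at 855 and 677 CPM in S (-0.34 [-0.94, 0.22], 11 and 3 cells). In G2/M they were at 474 CPM in 8 cells and 221 CPM in 16 cells (-1.10 [-1.60, -0.60]), and only this interval lay below 0. Over all ectoderm-like cells, without the division, the ring ratio was alike in the phases. It was -0.36 [-0.71, -0.02] in G1, -0.32 [-0.79, 0.13] in S and -0.34 [-0.75, 0.06] in G2/M. In SE-like cells it was -0.33 [-0.76, 0.10], -0.19 [-1.04, 0.58] and 0.30 [-0.47, 1.04]. The part of phase in the lower levels was not tested beyond these values.

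**Figure D4:**
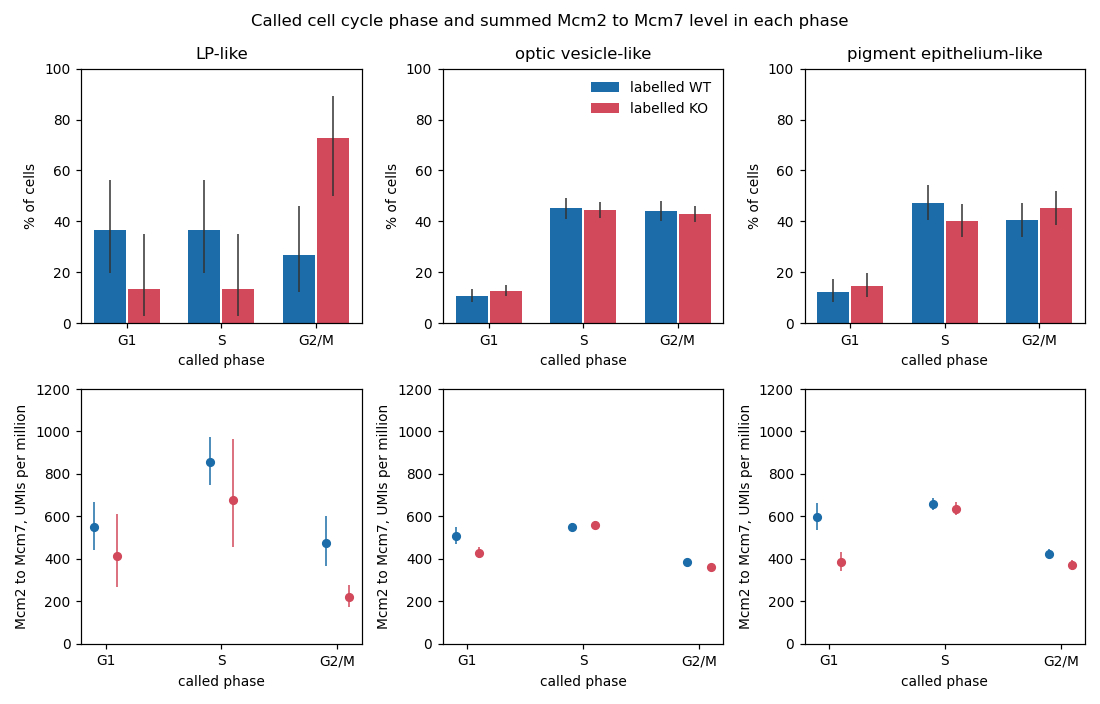
Upper panels, percent of cells called G1, S or G2/M with exact 95% binomial intervals; lower panels, summed level of *Mcm2* to *Mcm7* in UMIs per 1000000 in each called phase with exact 95% Poisson intervals, for the WT-labelled and KO-labelled libraries. In LP-like cells 72.7% of the KO-labelled library are called G2/M against 26.7% of the WT-labelled one, and in optic vesicle-like cells the KO-labelled and WT-labelled libraries stand at 42.8% and 44.0%.

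In the larger classes the ring genes were higher in S than in G2/M in both libraries. The S list of 38 genes that made the calls holds 22 genes outside the replication list described below. S calls thus draw in part on genes of the same pathway, so a higher ring level in S is no separate check of them. In optic vesicle-like cells the ring genes were at 550 CPM [532, 568] in S and 386 CPM [372, 400] in G2/M in the WT-labelled library, and at 561 CPM [546, 576] and 362 CPM [351, 374] in the KO-labelled one. The log2 ratio of S over G2/M was 0.51 [0.44, 0.58] and 0.63 [0.57, 0.69]. Of the members *Cdc6* differed most, at 27.3 CPM in S and 7.04 CPM in G2/M (1.95 [1.5, 2.43]) in the WT-labelled library and at 21.8 and 8.37 CPM (1.38 [1.01, 1.76]) in the KO-labelled one. Within the ring *Mcm4* differed most between S and G2/M (0.80 [0.58, 1.02] and 0.88 [0.69, 1.07]), while the smallest difference was that of *Mcm2* in the WT-labelled library (0.32 [0.12, 0.52]) and of *Mcm7* in the KO-labelled one (0.39 [0.26, 0.52]). In pigment epithelium-like cells S over G2/M was 0.64 [0.54, 0.74] and 0.78 [0.67, 0.89] for the ring, and in mesenchyme-like cells 0.63 [0.53, 0.72] and 0.76 [0.68, 0.84]. For S over G1 the libraries stood further apart in optic vesicle-like and pigment epithelium-like cells, but not in mesenchyme-like cells. The ring ratio was 0.11 [-0.01, 0.24] in the WT-labelled library and 0.39 [0.30, 0.49] in the KO-labelled one in optic vesicle-like cells, 0.14 [-0.02, 0.31] and 0.72 [0.55, 0.91] in pigment epithelium-like cells, and 0.45 [0.31, 0.60] and 0.44 [0.31, 0.56] in mesenchyme-like cells. In optic vesicle-like cells *Mcm2* had -0.14 [-0.48, 0.22] and 0.54 [0.27, 0.81] for S over G1, and *Cdc6* had 1.66 [0.93, 2.37] and 0.03 [-0.73, 0.73] for G1 over G2/M, the latter from 26 and 21 UMIs in G1. These differences between the libraries were not tested. Cells called G1 are those with low S and G2/M scores. Their ring levels in optic vesicle-like cells, 509 CPM [469, 551] and 428 CPM [402, 454], lay above those of G2/M, and *Mcm10* there was lower in G1 (16.3 and 21.1 CPM) than in S (39.8 and 44.6 CPM). Of the erythroid-like cells 35 of 36 and 48 of 52 were called G1, too few in S and G2/M to compare phases, and the ring genes stood at 444 and 364 CPM. Phase scores and levels are both relative to all UMIs of the cell, and the erythroid markers lower them in this class. A call of G1 there need not mean that phase.

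Outside the ectoderm few members were past 1.5-fold between the libraries. In optic vesicle-like cells 0 of the 9 members were past 1.5-fold in either direction, against 2.20% of 12132 genes lower and 2.60% higher. *Mcm7* was at 110 and 98.5 CPM (-0.15 [-0.25, -0.06]), *Cdc6* at 17.0 and 14.1 CPM (-0.28 [-0.52, -0.03]) and *Cdt1* at 38.2 and 43.4 CPM (0.18 [0.03, 0.33]). The other 6 members had intervals that held 0. Of all genes counted there, 10.0% had intervals below 0 and 10.2% above. In mesenchyme-like cells 0 members were past 1.5-fold, against 2.92% of genes lower and 2.67% higher, with *Cdt1* at 43.0 and 51.1 CPM (0.25 [0.07, 0.44]) and *Mcm5* at 80.8 and 90.4 CPM (0.16 [0.03, 0.30]). Intervals lay above 0 for 11.6% of the genes in this class and below 0 for 10.7%.

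Pigment epithelium-like cells had lower ring levels in the KO-labelled library, by less than 1.5-fold. *Mcm7* was at 128 and 103 CPM (-0.31 [-0.46, -0.16]), *Mcm3* at 97.0 and 79.1 CPM (-0.30 [-0.47, -0.13]), *Mcm6* at 92.4 and 79.1 CPM (-0.23 [-0.40, -0.05]) and *Mcm5* at 111 and 96.4 CPM (-0.20 [-0.36, -0.05]). *Mcm2* (71.7 and 70.5 CPM) and *Mcm4* (50.5 and 50.4 CPM) were level within counting error. None of the 9 was past 1.5-fold, a count of 0 against 2.52% of 10666 genes lower and 3.90% higher. Intervals below 0 were found for 4 of the 9 members and for 9.72% of these genes. The ring ratio there was -0.64 [-0.86, -0.41] in cells called G1 (27 and 34 cells), -0.05 [-0.15, 0.04] in S and -0.20 [-0.31, -0.08] in G2/M.

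The smaller classes gave wide intervals for single members. In forebrain-like cells *Cdc6* was past 1.5-fold lower with 23 and 19 UMIs (-0.64 [-1.60, 0.30]) and 0 members were higher, against 4.70% and 6.20% of genes. In neural crest-like cells 8 members reached 30 UMIs and 0 were past the limit, against 5.66% lower and 8.59% higher, and in endothelium-like cells 0 of 9 were, against 5.19% and 4.93%. In erythroid-like cells *Cdc6* was past 1.5-fold higher, at 15.9 and 27.3 CPM with 21 and 52 UMIs (0.78 [0.02, 1.58]), and 0 members were lower, against 5.17% of genes higher and 5.71% lower. *Mcm6* there was at 94.7 and 66.7 CPM (-0.51 [-0.87, -0.14]). The summed ring genes of the erythroid-like cells were also lower in the KO-labelled library, by less than 1.5-fold (444 and 364 CPM, -0.29 [-0.45, -0.13]). Over the 9 separate classes, 9 of 78 pairs of a member and a class were past 1.5-fold lower and 1 higher, and 7 of the 9 lower pairs were in LP-like cells. The share of all genes past it ran from 2.20% lower and 2.60% higher in optic vesicle-like cells to 10.8% and 8.97% in LP-like cells. No share pooled over classes is given.

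The other genes of DNA replication were read from a list of 73. In LP-like cells 48 of them reached 30 UMIs, of which 13 were past 1.5-fold lower in the KO-labelled library and 2 higher, against 10.8% and 8.97% of all genes, with a median log2 ratio of -0.34 against -0.01. Of the 7 genes of nucleotide supply 4 were lower. The lowest ratios were those of *Pola2*, a subunit of the polymerase that makes primers (42.1 and 11.5 CPM, -1.88 [-3.62, -0.46]), *Gins2*, part of the activated helicase (121 and 55.1 CPM, -1.14 [-1.87, -0.45]), and *Rrm2*, a subunit of ribonucleotide reductase (204 and 94.2 CPM, -1.11 [-1.66, -0.59]). The highest was *Dbf4*, the partner of the Cdc7 kinase that activates the ring (74.2 and 131 CPM, 0.82 [0.23, 1.42]), followed by *Gins1* (25.3 and 39.0 CPM, 0.63 [-0.46, 1.73]) and *Pold2* (38.8 and 52.8 CPM, 0.45 [-0.45, 1.35]). In SE-like cells 7 of 42 listed genes were lower and 3 higher, against 10.6% and 6.68% of all genes. The median log2 ratio there was -0.02, and that of all genes -0.02. *Timeless* was lowest in them (67.5 and 21.5 CPM, -1.65 [-3.05, -0.49]) and *Pole4* highest (98.0 and 165 CPM, 0.76 [0.20, 1.31]). Over all ectoderm-like cells 12 of 61 were lower and 1 higher, against 9.72% and 6.04% of all genes. There *E2f1*, a factor that drives such genes, was lowest (22.2 and 6.56 CPM, -1.76 [-3.49, -0.36]), and geminin, the inhibitor of *Cdt1*, was at 156 and 203 CPM (0.38 [0.07, 0.69]).

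In optic vesicle-like cells 0 of 73 listed genes were past 1.5-fold either way, against 2.20% of all genes lower and 2.60% higher, with a median of -0.04. *Pcna*, the sliding clamp, was at 175 and 133 CPM (-0.40 [-0.47, -0.32]), and *Mcmbp*, a binding partner of the ring, at 49.5 and 36.7 CPM (-0.43 [-0.58, -0.29]). *E2f1* was at 21.6 and 16.0 CPM (-0.43 [-0.65, -0.21]). It was among the 3 lowest of the list in the ectoderm-like, optic vesicle-like, forebrain-like, mesenchyme-like, endothelium-like and erythroid-like cells, and in forebrain-like cells it was at 41.3 and 8.19 CPM (-2.34 [-3.44, -1.36]). In pigment epithelium-like cells 2 of 72 were past 1.5-fold lower and 0 higher, against 2.52% and 3.90% of all genes: Cdc45, which joins the ring when it is activated (25.2 and 13.6 CPM, -0.89 [-1.28, -0.51]), and *Rrm2* (274 and 174 CPM, -0.66 [-0.77, -0.55]). In neural crest-like cells 1 of 53 was lower and 8 were higher, against 5.66% and 8.59% of all genes, with *Pola2* at 11 and 31.3 CPM (1.5 [0.29, 2.87]) and *Rnaseh2a*, which removes RNA primers, at 19.3 and 54.4 CPM (1.49 [0.59, 2.49]). In mesenchyme-like cells *Tyms*, which makes thymidylate, was at 92.9 and 117 CPM (0.33 [0.21, 0.46]).

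Most cells held ring transcripts. Of optic vesicle-like cells 99.3% [98.3, 99.8] in the WT-labelled library and 99.4% [98.6, 99.8] in the KO-labelled one had at least 1 UMI of *Mcm2* to *Mcm7*, and at a common depth of 8000 UMIs, to which 39 cells of the KO-labelled library and 0 of the WT-labelled one did not reach, 96.3% [94.5, 97.7] and 95.1% [93.5, 96.4] did. For single members the thinned share ran from 13.5% and 10.1% for *Cdc6* to 58.0% and 56.2% for *Mcm7*. All 6 subunits were seen at once in 2.0% and 1.30% of thinned cells. In LP-like cells 4 or more of the 6 were seen in 14 of 30 thinned cells of the WT-labelled library and in 1 of 21 of the KO-labelled one, with medians of 5 and 2 ring UMIs per cell. No class in these data is known to lack these genes, so the share due to free RNA could not be read from one. As a measure of free RNA, *Hbb-y*, a globin of erythroid cells, was at 110 and 230 CPM in optic vesicle-like cells and at 134327 and 147841 CPM in erythroid-like cells. Its part in the members' levels was not tested.

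Across cells the members followed each other only weakly. In thinned optic vesicle-like cells the mean Pearson r among the 15 pairs of ring genes was 0.07 over 600 cells of the WT-labelled library and 0.06 over 921 cells of the KO-labelled one, and the mean Spearman rho 0.07 and 0.05. In pigment epithelium-like cells the mean r was 0.11 over 222 cells and 0.13 over 220. The cells of a library share its preparation and most thinned counts of a gene were 0 or 1, so that these values are only descriptive. Of 8640 other genes seen in at least 5% of thinned cells, the 10 most alike to the summed ring UMIs over all thinned cells included *Ung*, *Rrm2*, *Hspa8*, *Pcna*, *Rpa2*, *Ccne1*, *Pkm*, *Hspd1* and *Tuba1b*. All classes were pooled here, so levels that differ between classes, such as those lowered by erythroid markers, can enter these correlations. The part of such differences was not tested. *Ung*, a uracil-DNA glycosylase, had r of 0.20 and 0.26, and the clamp *Pcna* 0.15 and 0.18. *Cdt1* (0.11 and 0.13) ranked 40 and *Cdc6* (0.12 and 0.12) ranked 43 of 8649 genes, and *Mcm10* (0.02 and 0.09) ranked 442.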

How the data were processed

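Whole-number UMI counts per gene and cell were deposited by the authors, who made them with Cell Ranger on mm10 (GRCm38), as the submitters' processing notes and the methods say, and combined both libraries in a step that can subsample reads. The counts are not scaled. From them, cells were kept that had 1500 to 8000 genes and no more than 5% mitochondrial UMIs, classes were set by detected markers, and UMIs were summed per class and library. A gene was counted where both libraries together held at least 30 UMIs in the class, and past the fold at a CPM ratio of 1.5 either way. For medians and calls, a sum under 3 UMIs was set to 3. Doublets were scored but not removed. Cells were not used as replicates, and no p-value was computed.

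The members, lists and tests were chosen with earlier results of these data known. The limits of the marker classes were set on the files, and the division of ectoderm cells was chosen after the members' values under 5 definitions had been seen. Named genes are all members, at most 3 lowest and 3 highest of the replication list per class, the 10 genes most alike to the ring genes, of which 1 is not reported here, and *Mab21l1*. *Top2a*, *Ccnb1* and *Hbb-y* were added after their values were seen, and markers and genes that overlap a member are named as such. The ratio and its interval were checked on simulated Poisson counts without variation between cells or embryos, so this check covers counting error only. Alternatives changed filters, classes, scaling, depth, phases and limits. The tools were scipy 1.17.1, numpy 2.4.6, igraph 0.11.9 for clusters and pandas 2.3.3, under Python 3.11.15.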

Additional observations from a re-analysis of the deposited data

Results flagged for a closer look

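*Mcm5* had intervals off 0 in opposite directions in different classes: the log2 ratio of KO over WT was -1.31 in LP-like and -0.20 in pigment epithelium-like cells, and 0.16 in mesenchyme-like cells. *Cdc6* did so as well, with -0.28 in optic vesicle-like cells and 0.78 [0.02, 1.58] in erythroid-like cells. Of all genes counted, 7.11% in LP-like, 9.72% in pigment epithelium-like and 10.0% in optic vesicle-like cells had intervals below 0. Intervals above 0 were found for 11.6% in mesenchyme-like and 3.39% in erythroid-like cells. The difference between classes was not tested for either gene, and each value rests on 1 library per genotype.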

How the results depend on the processing

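With 1 library per genotype no replicate could be left out. Of the alternatives to the summed and counted results, 107 stayed within the counting interval or 1.5 times of the reported value and 32 moved, none of them with a change of sign of a ratio past 1.5-fold. The sum of the 9 members in LP-like cells was below 0 under all 14 alternatives run. Log2 ratios below are those of the 9 members summed, KO over WT. With at most 2.5% mitochondrial UMIs the ratio was -0.81 in ectoderm-like, -0.10 in pigment epithelium-like, 0.25 in forebrain-like, -0.34 in neural crest-like, -0.01 in mesenchyme-like and -0.24 in endothelium-like cells. With classes from clusters it was -0.13 in optic vesicle-like and 0.28 in neural crest-like cells, and with a stricter marker limit -1.27 in LP-like, 0.33 in SE-like, -0.25 in pigment epithelium-like and 0.29 in neural crest-like cells. Thinning gave 0.03 in optic vesicle-like cells. The phase mix of WT gave -0.27 in ectoderm-like and -0.32 in LP-like cells, and a pseudocount of 1 on UMIs per 10000 gave -0.37 and -0.74. Of the settings chosen after seeing the data, the list with more markers gave 0.50 in SE-like cells, and an ectoderm limit of 3 markers -0.40 in ectoderm-like and -0.49 in LP-like cells. Single members that changed sign in LP-like cells included *Mcm2* (0.21, stricter limit), *Cdc6* (0.10 thinned, 0.19 phase mix), *Mcm6* (0.10, phase mix) and *Cdt1* (0.10, phase mix). In SE-like cells *Mcm10* did so (0.14, stricter limit). Pairs of a member and a class past the fold were 14 lower and 4 higher at the lower fold limit, 1 and 0 with at least 100 UMIs, where fewer pairs are counted, and 2 higher with 1 UMI in each library. The replication list had 35 lower and 18 higher of 553 pairs, and 10 and 6 of 381 with at least 100 UMIs. No share of all genes pooled over classes is given for these pair counts. By class, the share of all genes past 1.5-fold ran from 2.20% to 10.8% lower and from 2.60% to 8.97% higher at the reported UMI limit. For the other fold and UMI limits no share of all genes is given. These pair counts therefore do not set the members or the replication list apart from other genes. In optic vesicle-like cells S over G2/M was 0.56 in the KO-labelled library with phases scored after thinning, ring UMIs were seen in 96.3% and 95.1% of thinned cells, and the mean r was 0.12 and 0.13 on counts scaled to 10000 UMIs. Apart from the phase weights and thinning, which act by construction, the cause was not tested. No paired analysis was possible because each genotype has 1 library. The few ectoderm cells limit the precision: the 22 LP-like and 18 SE-like cells of the KO-labelled library held 174 and 144 UMIs of the 9 members.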
